A study of Mus musculus with 2 samples.

Results

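The proteasome genes described here are the protein-coding genes named Psma, Psmb, Psmc, Psmd, Psme, Psmf or Psmg with a number, taken where the symbol had reads in both deposited tables. They numbered 45 of the 48 such genes in the annotation, among 14614 known genes (13045 of them protein-coding) with reads in both libraries. RNA came from the hippocampus, labelled as its layer, and was sequenced as long reads. The animals were B6CASTF1/J males aged 14 days, the first-generation hybrid of C57BL/6J and CAST/EiJ mice. There was 1 group, with no treatment or mutation, and its 2 libraries, called replicate 1 and replicate 2, each pooled 3 males. The study therefore has no contrast between conditions, and every test below compares these 2 libraries by counting error alone.

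The proteasome is the protease complex that degrades ubiquitin-tagged proteins. Its barrel, the 20S core, has outer rings of alpha subunits that gate the entrance and inner rings of beta subunits, some of which cut peptides. The 19S cap recognises and unfolds substrates with a ring of ATPases. Other activators and an inhibitor act on the same core, and dedicated assembly chaperones help to build the core or the cap. In neurons it clears damaged proteins and turns over synaptic proteins.

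Mouse transcript models took 821324 reads in replicate 1 and 743862 in replicate 2. A level is given as reads per 1000000 of those mouse reads (CPM), as mean ± SD over the 2 libraries. Long-read counting takes 1 read per sequenced molecule whatever its length, so CPM was not divided by transcript length. Whether the cDNA was amplified is not given in the labels, so reads may not be independent RNA copies. At this depth 3 reads, the number that a count of 0 allows, equal 3.65 CPM in replicate 1 and 4.03 CPM in replicate 2. All 7 hippocampal neuron markers checked had reads (1674 and 1506 in sum), among them Slc17a7 of excitatory neurons and Prox1 and C1ql2 of the dentate gyrus. In whole tissue, more cells of a type and more RNA per cell cannot be told apart. The libraries differed in oligodendrocyte markers, with 3596 and 1571 reads over 3 genes, and the part of that difference in any result below was not tested.

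The proteasome genes took 4516 and 4071 reads, which is 5498 and 5473 CPM (5486 ± 18.1, SD, n = 2), or 0.550% and 0.547% of mouse reads. The median proteasome gene had 110.6 CPM, against 23.67 CPM for the median protein-coding gene with reads in both libraries, and 38 of 45 lay above that value. More than 100 CPM was reached by 24 of 45 proteasome genes (53.3%) and by 2017 protein-coding genes (15.5%). Levels spanned from 437.9 CPM for Psmd2 to 1.281 CPM for Psmb9. In that order, only 12 of 44 neighbouring pairs had ranges that did not overlap, so most ranks next to each other are not separated by the spread between the libraries. Over the 45 genes, log2 CPM in one library, with a small constant added before the log, followed that in the other (r 0.967, rho 0.968). The median model length per gene ran from 555 to 4397 bases. The log2 of that length had an r of 0.150 with the log2 level, and the rho was 0.196. Both correlations run across genes, which share libraries and depth, and stand as descriptions.

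**Figure D1:**
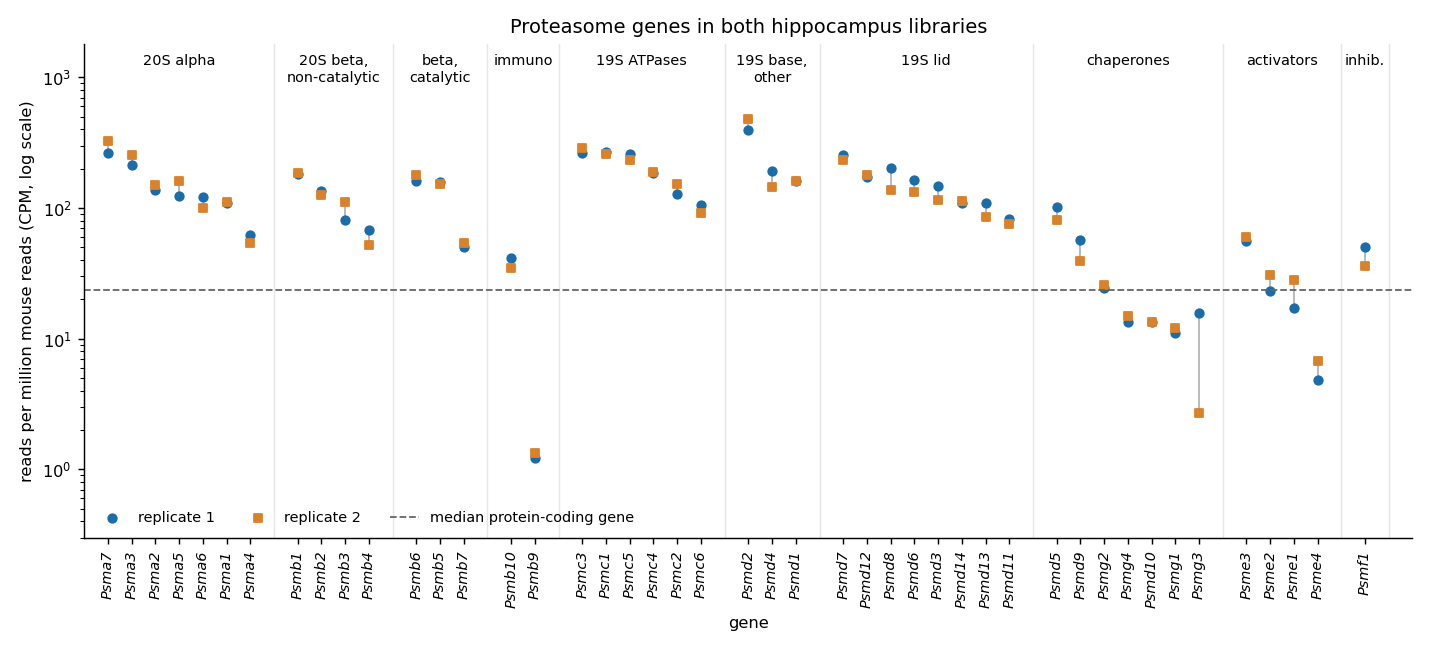
Level of each of the 45 proteasome genes in replicate 1 (circles) and replicate 2 (squares), in CPM on a log scale, grouped by role. The dashed line marks the median protein-coding gene at 23.67 CPM, and the constitutive subunits of the core and the cap lie above it. Near or below it lie 5 of 7 assembly chaperones, the activators Psme1, Psme2 and Psme4, and Psmb9.

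The alpha ring, which gates the core, was represented by all 7 subunits with a summed level of 1096 ± 88.5 CPM (SD, n = 2). Psma7 was the most abundant, with 218 reads (265.4 CPM) in replicate 1 and 243 reads (326.7 CPM) in replicate 2, a mean of 296.0 ± 43.3. Its log2 ratio, replicate 2 over replicate 1, was 0.30, and its unadjusted p by Fisher's exact test was 0.0283 (adjusted p 0.388). Psma3 had 234.2 ± 28.1 CPM, Psma2 144.1 ± 9.18 and Psma5 142.1 ± 27.1. Psma6 had 111.3 ± 14.8 CPM, Psma1 110.6 ± 1.41 and Psma4 57.93 ± 5.88. The most abundant alpha subunit thus had 5.11 times the CPM of the least abundant, although the assembled ring holds each subunit in equal number. Psma8, the alpha subunit of the testis proteasome, had 1 read in replicate 1 and 0 in replicate 2, under the level that 3 reads give.

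The non-catalytic beta subunits summed to 468.5 ± 6.59 CPM (SD, n = 2). Psmb1 had 182.8 ± 1.95 CPM, Psmb2 130.1 ± 5.35, Psmb3 95.3 ± 21.1 and Psmb4 60.31 ± 11.1. Psmb3 had more reads in replicate 2 (66 and 82) and Psmb4 fewer (56 and 39), and neither difference passed the test.

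The 3 constitutive catalytic subunits cut peptides with different preferences. Psmb6, the caspase-like subunit, had 133 and 132 reads (161.9 and 177.5 CPM, 169.7 ± 11.0). Psmb5, the chymotrypsin-like subunit and the main target of proteasome inhibitor drugs, had 131 and 114 reads (159.5 and 153.3 CPM, 156.4 ± 4.42). Psmb7, the trypsin-like subunit, had 41 and 40 reads (49.92 and 53.77 CPM, 51.85 ± 2.73). In both libraries Psmb7 lay below the other two with no overlap, while Psmb5 lay just below Psmb6 in each. By its mean, Psmb6 had 3.27 times the CPM of Psmb7, although the core holds these subunits in equal number.

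The immunoproteasome replaces each of these subunits with a form that interferon induces and that is abundant in immune cells. Psmb8, the counterpart of Psmb5, had 0 reads in replicate 1 and 1 in replicate 2, which is 0% and 0.870% of the reads of that pair, and the 0 of 131 allows a share of up to 2.29%. Psmb9, the counterpart of Psmb6, had 1 read in each library, or 0.746% and 0.752% of its pair. Psmb10, the counterpart of Psmb7, had 34 and 26 reads (41.40 and 34.95 CPM, 38.17 ± 4.56), which is 45.3% and 39.4% of its pair (Wilson 95% intervals 34.6% to 56.6% and 28.5% to 51.5%). So nearly all reads of immunoproteasome catalytic subunits, 60 of 63, came from Psmb10. Its level lay below that of Psmb7 (49.92 and 53.77 CPM) in both libraries, with no overlap. Counted over the 3 pairs together, the immunoproteasome forms held 10.3% of reads in replicate 1 (7.5% to 14.0%) and 8.92% in replicate 2 (6.24% to 12.6%). On annotated transcripts alone the Psmb10 share was 31.6% and 33.3% and the share over the 3 pairs 6.07% and 6.99%, since 35.0% of Psmb10 reads were incomplete matches. Markers of lymphocytes and antigen presenting cells had 6 reads in each library over 6 genes, with Cd3e and H2-Aa at 0. Interferon response genes had 21 and 19 reads over 6 genes, with Irf7 and Ifit1 at 0, and microglia markers had 177 and 194 reads over 4 genes. The part of these cells in the Psmb10 level was not tested. Psmb11, the subunit of thymic epithelium, had 0 reads in replicate 1 and 1 in replicate 2, while the thymic marker Foxn1 had 0 in both.

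The 17 subunits of the 19S cap that carry a Psmc or Psmd name (Adrm1 and Sem1, named otherwise, are not among them) summed to 3200 CPM in replicate 1 and 3069 CPM in replicate 2, against 1869 and 2017 CPM for the 14 constitutive core subunits. The median cap subunit had 172.9 and 151.9 CPM and the median core subunit 128.4 and 138.5 CPM. Within each set the most abundant subunit had 4.77 to 6.39 times the CPM of the least abundant.

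The 6 ATPases, which unfold substrates and open the gate, summed to 1211 ± 1.66 CPM (SD, n = 2). Psmc3 had 218 and 213 reads (265.4 and 286.3 CPM, 275.9 ± 14.8), Psmc1 had 221 and 194 reads (269.1 and 260.8 CPM, 264.9 ± 5.85), and Psmc5 had 212 and 174 reads (258.1 and 233.9 CPM, 246.0 ± 17.1). These 3 were among the 5 most abundant proteasome genes. Psmc4 followed at 186.0 ± 3.08 CPM, Psmc2 at 140.5 ± 16.2 and Psmc6 at 98.06 ± 9.40, so the ring's subunits differed by up to 2.81 times in CPM.

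Psmd2, a scaffold of the cap that binds ubiquitin-like shuttle proteins, was the most abundant of all 45, with 324 reads (394.5 CPM) in replicate 1 and 358 reads (481.3 CPM) in replicate 2, a mean of 437.9 ± 61.4. Its lower library lay above every other proteasome gene in either library. The log2 ratio was 0.29, with an unadjusted p of 0.0101 by Fisher's exact test (adjusted p 0.244). Psmd4, a ubiquitin receptor, had 157 and 107 reads (191.2 and 143.8 CPM, 167.5 ± 33.5), a log2 ratio of -0.41 (unadjusted Fisher's exact p 0.0263, adjusted 0.378). Psmd1, the other large scaffold of the base, had 161.0 ± 1.38 CPM.

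The 8 lid subunits summed to 1157 ± 121 CPM (SD, n = 2). A lower CPM in replicate 2 was seen for 6 of them, none of which was called, where 51.5% of all genes tested were higher. Psmd7 led at 244.2 ± 14.5 CPM, and its partner Psmd14, the deubiquitinase that removes ubiquitin chains from substrates, had 110.6 ± 3.23. Psmd12 had 175.8 ± 4.18 CPM, Psmd6 148.1 ± 21.3, Psmd3 130.8 ± 23.4, Psmd13 97.14 ± 17.6 and Psmd11 79.04 ± 5.31. Psmd8 had 167 reads (203.3 CPM) in replicate 1 and 103 (138.5 CPM) in replicate 2, a mean of 170.9 ± 45.9. Its log2 ratio of -0.55 was the lowest of the genes tested and had the smallest p of them, 0.00225 by Fisher's exact test (adjusted p 0.112).

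The 7 chaperones summed to 212.2 ± 33.9 CPM (SD, n = 2). Most of that came from Psmd5 (90.86 ± 14.4 CPM) and Psmd9, which with Psmd10 help to build the ATPase ring. Psmd9 had 47 and 29 reads (57.22 and 38.99 CPM, 48.11 ± 12.9). Psmd10, also known as gankyrin, had 11 and 10 reads (13.39 and 13.44 CPM, 13.42 ± 0.0356). The core chaperones are the products of the Psmg genes, which guide the alpha ring. Psmg2 had 24.95 ± 0.842 CPM and Psmg4 14.09 ± 0.986, Psmg1 had 9 reads in each library (11.53 ± 0.807 CPM), and Psmg3 had 13 and 2 reads (15.83 and 2.689 CPM, 9.258 ± 9.29). Psmg1 and Psmg2 act as a dimer, as do Psmg3 and Psmg4.

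The 4 activators summed to 113.7 ± 17.9 CPM (SD, n = 2). Psme3, the nuclear PA28 gamma, had 58.25 ± 3.17 CPM. Psme1 and Psme2, the interferon-inducible partners that form PA28 alpha-beta and lie near each other on chromosome 14, had 22.64 ± 7.91 and 27.03 ± 5.51 CPM. Psme1 had 14 and 21 reads and the highest log2 ratio of the genes tested (0.71), which did not pass (adjusted Fisher's exact p 0.737). Psme4, the large activator PA200, had 4 and 5 reads (4.870 and 6.722 CPM, 5.796 ± 1.31). Psmf1, the inhibitor PI31, had 41 and 27 reads (49.92 and 36.30 CPM, 43.11 ± 9.63).

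Of the 45 genes, 41 had at least 20 reads in all and entered the test. None was called between the libraries by Fisher's exact test with adjustment over all 8875 genes tested, of which 140 (1.58%) were called. An unadjusted p under 0.05 was reached by 4 proteasome genes (Psmd2, Psma7, Psmd8 and Psmd4; 9.76%) and by 10.3% of all genes tested. A higher CPM in replicate 2 was seen for 21 and a lower one for 20, with a median log2 ratio of 0.01, the same as over all genes tested. No proteasome gene tested differed by 2-fold or more, against 3.99% of all genes tested. No proteasome gene was called under the alternatives either: with edgeR's TMM library sizes (1.53% of all genes called, lowest adjusted Fisher's exact p of a proteasome gene 0.0821), on annotated transcripts only (1.14%), with a minimum of 10 reads (1.16%) or with no minimum (0.541%).

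**Figure D2:**
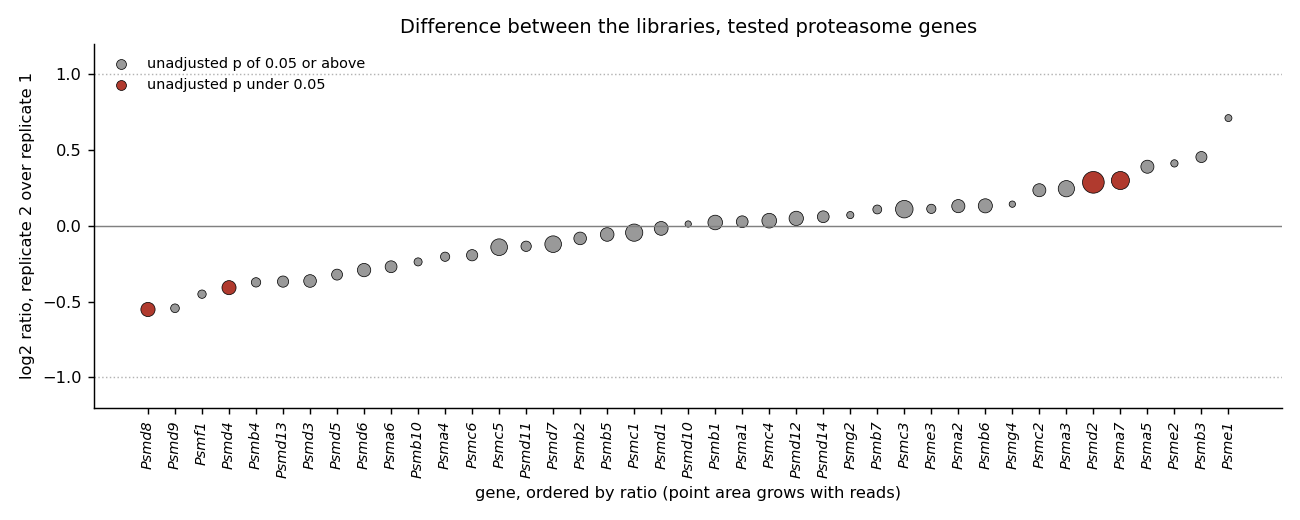
Log2 ratio of CPM, replicate 2 over replicate 1, for the 41 proteasome genes tested, in rising order from Psmd8 (-0.55) to Psme1 (0.71). Point area grows with reads, dotted lines mark a 2-fold difference, and red points are the 4 genes with an unadjusted p under 0.05, none of which passed after adjustment.

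Partners of the proteasome outside the naming rule were also read from a fixed list of 30, of which 28 symbols were matched and tested. None was called (1.58% of all genes tested were), and 1 had an unadjusted p under 0.05 by Fisher's exact test (10.3% of all genes tested). A higher CPM in replicate 2 was seen for 16 and a lower one for 12, where 51.5% of all genes tested were higher, and the median log2 ratio was 0.06 (0.01 over all genes tested). That gene was Zfand2b, an adaptor of the unfoldase p97, with 22 and 39 reads (adjusted p 0.287). The most abundant was Vcp, which encodes that unfoldase, at 387.0 ± 13.5 CPM (SD, n = 2). The deubiquitinase Usp14, which sits on the cap, had 164 and 149 reads, and Zfand5, a proteasome-binding zinc finger protein, had 199.7 ± 8.61 CPM. Nfe2l1, the transcription factor that drives proteasome genes when the complex is inhibited, had 192.4 ± 15.4 CPM. Adrm1, a ubiquitin receptor of the cap, had 162.5 ± 5.95 CPM and Pomp, the maturation factor of the core, 126.1 ± 25.1.

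Processed copies of proteasome genes took few reads. By alignment to the coding sequences, 34 annotated pseudogenes matched 16 of the genes at 85% identity or more over at least 50% of the coding sequence. Only 4 of the 34 had reads, 9 in replicate 1 and 7 in replicate 2. Gm4118 (on chromosome 14, 91.9% identical to Psma2) had 5 and 3 reads beside 113 and 112 for Psma2. AC114990.1 (97.1% identical to Psmb3) had 2 and 4 reads beside 66 and 82 for Psmb3. Gm12989 and Gm8394, copies of Psma5, had 1 and 0 reads each. No proteasome gene had 20 antisense reads over its exons in the libraries together.

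Most proteasome reads were full annotated transcripts. Annotated transcripts held 83.7% ± 1.59 of proteasome reads (SD, n = 2) and 71.4% ± 1.12 of the reads of other protein-coding genes. Incomplete matches, models that hold only part of an annotated exon chain, made up 10.1% ± 1.71 and 10.7% ± 0.252. New combinations of annotated splice sites were 2.42% ± 0.0862 against 6.84% ± 0.0648, and models with a new splice site 2.42% ± 0.333 against 4.20% ± 0.00706. Models of the genomic class, all of them with 1 exon in proteasome genes, were 1.34% ± 0.296 against 6.81% ± 0.942. Among multi-exon models alone the annotated share was 85.8% ± 0.684 for proteasome genes and 77.9% ± 0.190 for other protein-coding genes. Of annotated reads, 97.9% ± 0.504 belonged to transcripts of protein-coding type in proteasome genes and 97.6% ± 0.0582 in the others. The 2 sets differed in length. The median model length per read was 1550 bases in replicate 1 and 1541 in replicate 2 for proteasome genes. For the other protein-coding genes it was 2288 and 2290 bases. The part of length in the differences between the sets was not tested.

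**Figure D3:**
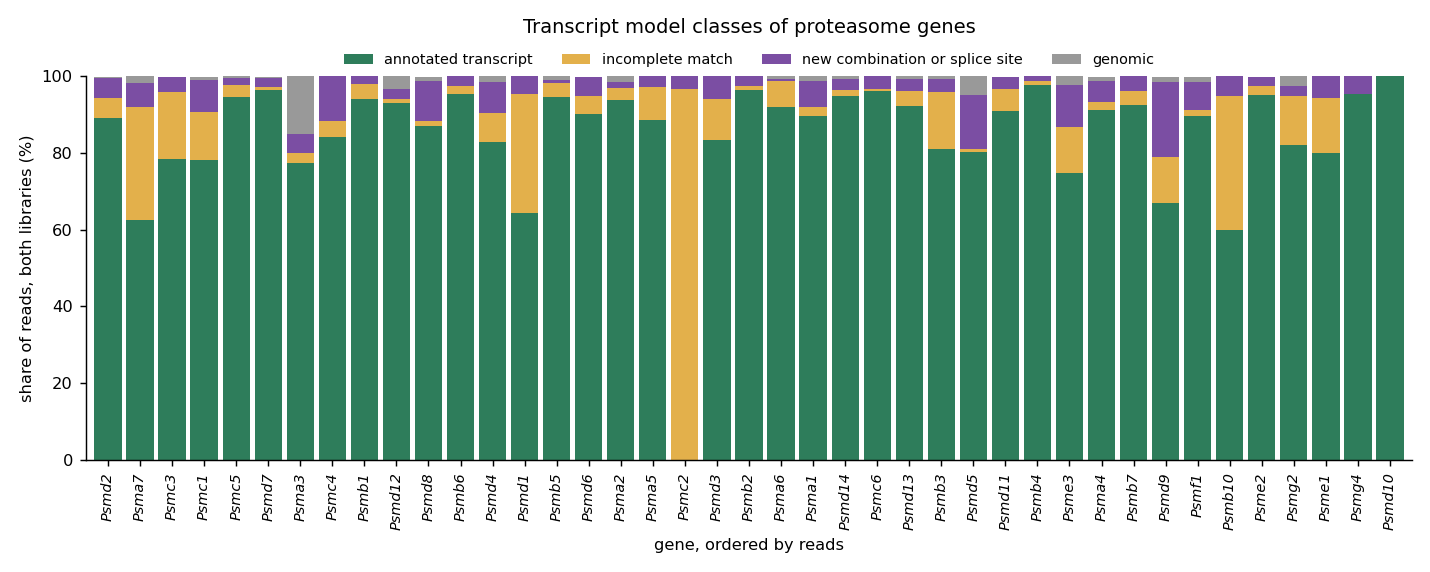
Share of reads (%, both libraries together) by model class for the 41 proteasome genes with at least 20 reads, ordered by reads. Bars are mostly annotated transcripts, with Psmc2 almost wholly incomplete matches (96.8%) and Psmd1, Psma7 and Psmb10 between 29.5% and 35.0% incomplete.

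Psmc2, an ATPase of the cap, departed from this pattern, with 0 of 219 reads on an annotated transcript. Of its reads, 99 in replicate 1 (93.4%) and 102 in replicate 2 (90.3%) followed the same chain of 12 exons, which is Psmc2-201 without its first of 13 exons (mm10 chromosome 5, 21785283 to 21785517). No read in either library held that exon. Exon 1 has 235 bases and none of them is coding, and the annotated coding sequence starts in exon 2 (21786650 to 21786884). RefSeq lists 2 starts for the gene, 21785275 beside exon 1 and 21786747 within exon 2. Of the 235 bases of exon 2, 196 are coding, and the start at 21786747 lies inside that coding part. It is also downstream of 21786650, the leftmost base of the models with the 12-exon chain. Psme4, with 9 reads, was the only other proteasome gene with reads in both libraries and none on an annotated transcript. Of the 1510 protein-coding genes that reached 200 reads in sum, 18 (1.19%) had no read on an annotated transcript.

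Psma7 and Psmd1 had a large share of reads that were incomplete, at opposite ends. For Psma7, 46 of its reads in replicate 1 (21.1%) and 78 in replicate 2 (32.1%) began in exon 4 of 7, so exon 3 was held by 77.5% and 66.7% of reads and exon 4 by 99.5% and 99.2%. For Psmd1, 39 reads (29.3%) and 24 reads (20.2%) held the first 22 of 25 exons, and the share of reads that held the exon fell from 97.7% and 99.2% at exon 22 to 65.4% and 79.0% at exon 23. Psmc3 had 19 and 43 reads (8.72% and 20.2%) on a single-exon model of the gene's last exon, and Psma3 had 23 and 32 genomic reads (13.1% and 16.9%) within its last exon. These reads count in the levels above: on annotated transcripts alone Psma7, Psmb10, Psmc2, Psmd1 and Psme4 changed by more than 1.5 times, and no other proteasome gene did. Psma7 had 174.1 and 194.9 CPM on annotated transcripts, in place of 265.4 and 326.7.

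**Figure D4:**
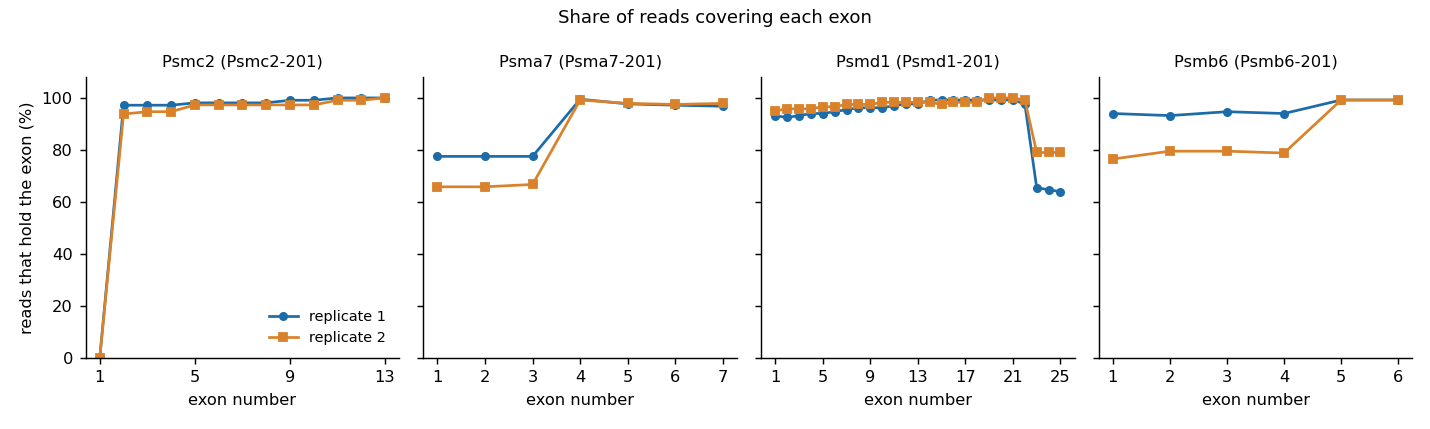
Share of reads (%) that hold each exon of the annotated transcript, from the first to the last exon, in replicate 1 (circles) and replicate 2 (squares). Exon 1 of Psmc2 is at 0 in both libraries, Psma7 and Psmb6 step up at exons 4 and 5, and Psmd1 steps down after exon 22.

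Few proteasome genes had more than 1 isoform. An isoform was counted with at least 5 reads and 10% of its gene's reads on annotated or new transcripts. In 34 proteasome genes both libraries had 20 or more such reads, and 4 of these (11.8%) had more than 1 counted isoform, against 1773 of 4864 protein-coding genes (36.5%). Those 4864 genes were not matched to the proteasome genes by length or by reads. With a minimum of 5% the counts were 9 of 34 (26.5%) and 48.4%, and with 20% they were 1 of 34 and 17.9%. The 4 genes were Psmd4, Psmb6, Psmd9 and Psmf1. Psmd10, Psmg4 and Psmb10 also had more than 1 isoform above 10% but too few reads for the test.

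Isoform shares of Psmb6 differed between the libraries. The full transcript Psmb6-201, which has 6 exons (mm10 chromosome 11, 70525386 to 70527649), had 120 of 132 reads in replicate 1 and 97 of 128 in replicate 2. Psmb6-202, annotated as a retained intron with 2 exons and no coding sequence, had 7 reads (5.30%, Wilson 95% interval 2.59% to 10.5%) and 27 reads (21.1%, 14.9% to 29.0%). The difference passed Fisher's exact test (p 0.000171, adjusted p 0.00871), and it made Psmb6 the 1 called gene of the 4 tested, where 2.41% of all 1786 genes tested were called. With a 5% isoform minimum Psmb6 was the 1 called of 9 (2.79% of all genes tested), and on annotated transcripts alone the 1 of 3 (0.358%), with an adjusted p of 0.0476 by the same exact test. As annotated, Psmb6-202 starts inside intron 4, and its only intron is also an intron of Psmb6-201, the one after exon 5. A read of Psmb6-201 cut short in exon 5 would hold that same junction. Where the reads themselves began was not tested, so the 2 cannot be told apart here. The first bases of Psmb6-202 as annotated are shown (chr11:70527072-70527208, plus strand, mm10, with exon 5 of Psmb6-201 in capitals and intron in lower case).
Psmb6-202 start: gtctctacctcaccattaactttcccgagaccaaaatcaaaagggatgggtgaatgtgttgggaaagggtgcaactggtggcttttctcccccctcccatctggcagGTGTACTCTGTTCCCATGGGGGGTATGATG
Exons 1 to 4 of Psmb6 were held by 93.2% to 94.7% of reads in replicate 1 and by 76.5% to 79.5% in replicate 2, and exon 5 by 99.2% in both.

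Psmd4 used both of its annotated splice sites at the end of exon 7. The longer form, in Psmd4-201, keeps 9 more bases, and its coding sequence has 1137 bases against 1128 in Psmd4-202. The longer junction was used by 52 of 151 reads in replicate 1 (34.4%, Wilson 95% interval 27.3% to 42.3%) and 27 of 104 in replicate 2 (26.0%, 18.5% to 35.1%), 31.0% over both. The intervals overlap. By whole transcripts, Psmd4-202 had 81 and 70 reads and Psmd4-201 had 43 and 23 of 139 and 101, and the shares did not pass (Fisher's exact p 0.137, adjusted 0.887). The exon is shown with the 9 alternative bases in capitals, which keep the reading frame (chr3:95033909-95034026, minus strand, mm10).
Psmd4 exon 7: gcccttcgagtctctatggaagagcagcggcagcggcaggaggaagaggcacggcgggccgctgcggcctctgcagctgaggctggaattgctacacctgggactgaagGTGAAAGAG
The optional bases begin with the letters GTG, and the shorter form is spliced just before them.

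Psma3 showed a choice of 5 bases at the start of exon 3. The annotated junction that leaves these bases out was used by 11 of 143 reads (7.69%, Wilson 95% interval 4.35% to 13.2%) and 17 of 148 reads (11.5%, 7.30% to 17.6%), 9.62% over both. The bases are in capitals (chr12:70983319-70983442, plus strand, mm10), and 5 is not a multiple of 3.
Psma3 exon 3: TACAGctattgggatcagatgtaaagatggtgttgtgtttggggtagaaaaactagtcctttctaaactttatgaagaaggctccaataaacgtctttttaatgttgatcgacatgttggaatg
Psma7 had a junction outside the annotation, from a first exon longer by 290 bases (mm10 chromosome 2, 180041988 to 180042277) to exon 2. It was used by 12 of 157 reads (7.64%) and 9 of 154 (5.84%).

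Some Psmd8 reads lacked part of the coding sequence. A junction outside the annotation joined the end of exon 1 to a site inside exon 4 (mm10 chromosome 7, from base 29180277 to base 29177197) in 19 of 165 reads in replicate 1 (11.5%, Wilson 95% interval 7.5% to 17.3%) and 4 of 96 in replicate 2 (4.17%, 1.63% to 10.2%). It leaves out exon 2 (73 bases), exon 3 (103 bases) and the first 34 bases of exon 4, 210 coding bases in all, a multiple of 3. The spliced bases left out are shown from the GENCODE transcript Psmd8-202, with exon 3 in lower case between exon 2 and the part of exon 4 in capitals (minus strand).
Psmd8 bases left out: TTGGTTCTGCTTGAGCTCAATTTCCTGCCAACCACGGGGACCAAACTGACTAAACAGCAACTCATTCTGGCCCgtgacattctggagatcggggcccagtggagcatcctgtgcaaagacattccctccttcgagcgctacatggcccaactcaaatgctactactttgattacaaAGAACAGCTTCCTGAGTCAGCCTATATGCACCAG
On annotated transcripts, which leave these reads out, Psmd8 had 176.5 CPM in replicate 1 and 121.0 in replicate 2, so the lower level in replicate 2 was seen there too.

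Some reads skipped whole exons. In 36 proteasome genes, 282 internal exons had at least 20 reads in each library, and all of them are annotated. Of these, 7 in 5 genes had a mean inclusion between 5% and 95%. The same share over all genes was not counted, so 7 of 282 cannot be called low or high. None of the 7 was called between the libraries by Fisher's exact test, where 1 of 2276 exons of all genes (0.0439%) was called, and 2 had an unadjusted p under 0.05 (exons 2 and 3 of Psmd8, 0.0437 and 0.0438). With incomplete matches left out 0 of 7 were called as well (0.186% of all exons tested), and with a minimum of 10 reads 0 of 8 (0.0% of all exons tested). Exon 2 of Psmd9 was left out by 6 of 42 and 6 of 28 reads at the junction after exon 1 (14.3% and 21.4%), exon 2 of Psmd5 by 9 of 79 and 6 of 56 (11.4% and 10.7%), and exon 4 of Psme3 by 1 of 40 and 4 of 37 (2.50% and 10.8%). None of these 3 skipping junctions is in the annotation. The exons are shown in capitals with 12 bases of each neighbouring exon in lower case, to show the sequence the shorter forms lack: Psmd9 (chr5:123234594-123234696, plus strand), Psmd5 (chr2:34866893-34867037, minus strand) and Psme3 (chr11:101317623-101317727, plus strand), all mm10.
Psmd9 exon 2: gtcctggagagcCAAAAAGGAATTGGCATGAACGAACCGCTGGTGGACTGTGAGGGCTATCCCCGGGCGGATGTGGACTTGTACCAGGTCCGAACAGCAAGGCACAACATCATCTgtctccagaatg
Psmd5 exon 2: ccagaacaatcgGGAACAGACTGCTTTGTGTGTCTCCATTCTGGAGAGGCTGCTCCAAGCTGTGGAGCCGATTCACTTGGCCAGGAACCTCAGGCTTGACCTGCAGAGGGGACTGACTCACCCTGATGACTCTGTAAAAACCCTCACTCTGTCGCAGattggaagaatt
Psme3 exon 4: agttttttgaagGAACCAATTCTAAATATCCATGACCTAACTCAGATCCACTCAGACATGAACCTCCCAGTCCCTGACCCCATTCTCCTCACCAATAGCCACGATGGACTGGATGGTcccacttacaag
All 3 exons are wholly coding. That of Psme3 has 105 bases, a multiple of 3, while those of Psmd9 (103 bases) and Psmd5 (145 bases) are not multiples of 3.

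Psmf1 had reads of a shorter transcript in replicate 1, and none were seen at the depth of replicate 2. Psmf1-206, annotated as a target of nonsense-mediated decay, lacks exons 2 and 3 of Psmf1-201 and had 7 of 40 reads in replicate 1 (17.5%, Wilson 95% interval 8.75% to 31.9%) and 0 of 26 in replicate 2 (0% to 12.9%). The shares did not pass after adjustment (Fisher's exact p 0.0358, adjusted 0.548).

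Of the chaperones with few reads, Psmd10 and Psmg4 had the most even isoform shares. Psmd10-201 had 4 and 8 reads and Psmd10-202 had 7 and 2 of 11 and 10, and the intervals of the share of Psmd10-202 overlap (35.4% to 84.8% and 5.67% to 51.0%). They differ by the last 79 bases of exon 4, in capitals (chrX:140952147-140952313, minus strand, mm10), and the coding sequence has 693 bases with them and 453 without. Psmg4-202 had 6 and 8 reads and Psmg4-201, which lacks exon 2, had 4 and 3 of 11 in each library. Exon 2 of Psmg4 has 76 bases (chr13:34166061-34166136, plus strand, mm10), and the coding sequence has 369 bases with it and 246 without.
Psmd10 exon 4: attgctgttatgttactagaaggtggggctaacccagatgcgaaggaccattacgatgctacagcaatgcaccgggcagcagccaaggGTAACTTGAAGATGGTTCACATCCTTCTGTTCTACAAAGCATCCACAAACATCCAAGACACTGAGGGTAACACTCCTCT
Psmg4 exon 2: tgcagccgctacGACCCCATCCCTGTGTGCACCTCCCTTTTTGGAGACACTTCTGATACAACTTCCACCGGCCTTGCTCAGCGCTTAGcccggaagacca
Psmb10, with 36 annotated reads, had 13 reads in each library on the full Psmb10-201 and 3 in each on Psmb10-205, annotated as a retained intron.

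**Figure D5:**
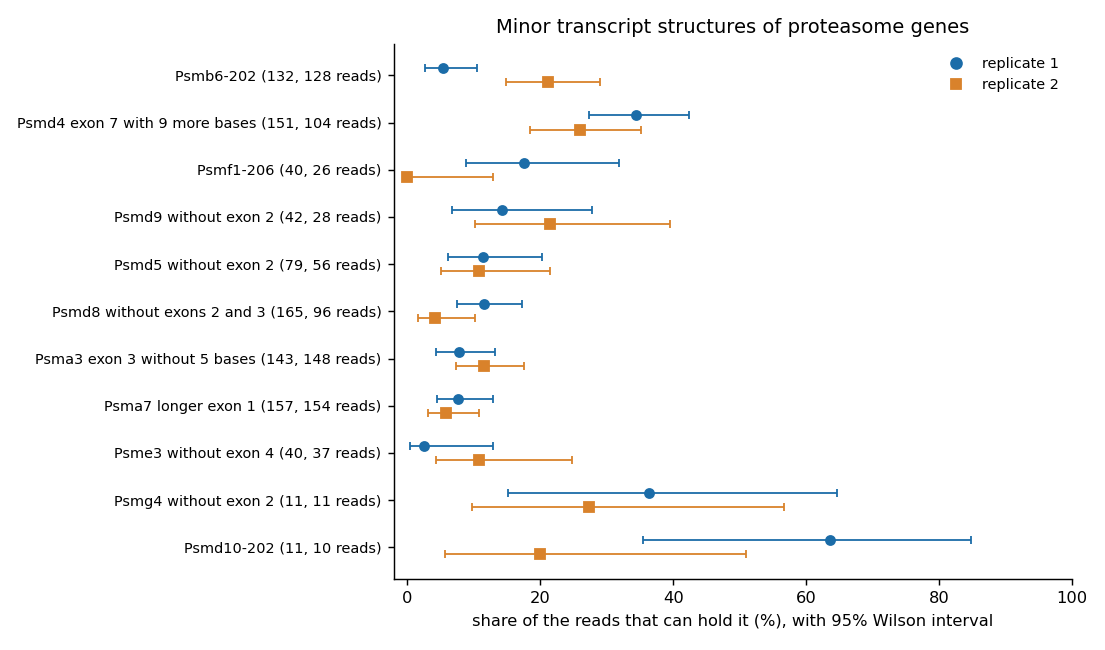
Share of reads (%) on each minor structure in replicate 1 (circles) and replicate 2 (squares), with Wilson 95% intervals and the number of reads in each library beside the name. The intervals of Psmb6-202 are apart (5.30% and 21.1%), and those of the other 10 structures overlap.

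The promoters were read for letters that known regulators of these genes bind. RefSeq promoter windows, 250 bases before to 50 after a start on GRCm38.p6, were found for 38 of the 45 genes (41 windows) and for 27025 genes in all (32851 windows). The letters CCGGAAG, the core that ETS factors bind, stood on either strand in 14 of 38 proteasome genes (36.8%) and in 9.93% of all genes. These are all genes with a window, with or without reads here, and they were not matched to the proteasome genes by level. Of the 7 other sets of letters searched on both strands, TGACNNNGC, the core of the antioxidant response element to which Nfe2l1 and Nfe2l2 bind, stood in 6 of 38 (15.8%) and 14.0% of all genes. The same element with an A after these letters, which overlaps them, stood in 2 (5.26%) and 3.45%. The TATA box letters TATAAA stood in 3 (7.89%) and 15.7%, the CCAAT letters in 13 (34.2%) and 41.1%, and the AP-1 letters TGAGTCA in 1 (2.63%) and 5.95%. The palindrome of nuclear respiratory factor 1 (Nrf1, a different factor from Nfe2l1) stood in 2 (5.26%) and 1.07%. The NF-E2 letters TGACTCAGC, which overlap the AP-1 letters on the other strand, stood in 0 and 0.503%. These letters were chosen with the windows in view, and a match is a description of the sequence, not a binding site. The ETS letters, in capitals, are shown for the 4 most abundant genes where the letters lie before a RefSeq start and the whole stretch shown overlaps no GENCODE exon of the gene: Psmd2 (chr16:20651601-20651651, plus strand), Psmd4 (chr3:95042708-95042764, minus strand), Psmc2 (chr5:21785166-21785222, plus strand) and Psma6 (chr12:55398668-55398724, plus strand).
Psmd2: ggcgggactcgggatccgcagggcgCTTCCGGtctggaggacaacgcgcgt
Psmd4: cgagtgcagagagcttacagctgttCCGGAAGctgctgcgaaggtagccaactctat
Psmc2: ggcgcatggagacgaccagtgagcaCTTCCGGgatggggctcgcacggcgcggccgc
Psma6: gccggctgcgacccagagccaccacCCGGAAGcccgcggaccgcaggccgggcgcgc
Psmd2 and Psmc2 hold the reverse complement CTTCCGG on the gene's strand. The stretch of Psma6 precedes the RefSeq start at 55398825 and lies inside the gene as annotated, downstream of another RefSeq start at 55384222. That of Psmc2 precedes the RefSeq start at 21785275, beside exon 1, and no read in either library held that exon.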

How the data were processed

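Long-read RNA sequencing libraries of 1 group (hippocampus, 2 replicates) were analysed. Per the file headers, the deposited tables hold raw read counts per transcript model, with other columns for exon number and length, and the deposited annotation files hold model positions. Genome build mm10 and annotation GENCODE M21 are named by text the authors deposited with these tables. For the aligner and the transcript caller, nothing was given in the sources used here. The sample labels name different animals for each library and the experiment label repeats those of replicate 1, so the spread may be technical.

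Reads were summed over all models of a known gene on its strand. CPM is per 1000000 mouse reads, ERCC reads left out. Log2 ratios add 0.5 reads. A gene with 20 or more reads in all was tested between the libraries (Fisher's exact, two-sided; its reads against the remaining mouse reads), with Benjamini-Hochberg adjustment across every gene tested and a threshold of 0.05. Isoform shares and exon inclusion (at least 20 reads in each library) were tested likewise over all genes; genes with more than 2 isoforms, none of them a proteasome gene, used 10000 simulated tables of fixed margins. Pseudogenes were aligned to coding sequences. Wilson intervals are at 95% and, like the 3-read floor, cover counting error only, since reads without molecular identifiers may not be independent molecules. TMM factors came from edgeR 4.0.16. Tests were checked on simulated counts of independent reads with counting error alone. That check cannot show how they behave where reads are not independent or where libraries vary by more. Sequences come from GENCODE M21 transcripts and RefSeq promoters (GRCm38.p6). All proteasome genes are named, with full values for those that passed a test, those with more than 1 isoform, the 5 highest and 5 lowest, and the catalytic subunits; for partners, the 6 most abundant and any called. The genes, lists, structures and tests were chosen with earlier results of these data known. Alternatives are in the closing section. The partner symbols Paaf1 and AI314180 were not analysed here.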

Additional observations from a re-analysis of the deposited data

How the results depend on the processing

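The counts of genes and exons called between the libraries did not change under any alternative tried: 0 proteasome genes and 0 partners with TMM library sizes, annotated transcripts only, a minimum of 10 reads or no minimum, 0 exons without incomplete matches or with a minimum of 10 reads, and 1 gene (Psmb6) for isoform shares with a 5% minimum or on annotated transcripts only. The count of proteasome genes with more than 1 counted isoform, 4, became 9 with a 5% minimum, 1 with a 20% minimum and 8 with incomplete matches included. It was 3 to 4 with either replicate left out. The summed level of 5486 CPM became 4591 on annotated transcripts only, 5343 on multi-exon models only and 5415 on reads over the same exons, and was unchanged with TMM library sizes. The mean immunoproteasome share of 9.61% became 6.53% on annotated transcripts only. The annotated share of 83.7% became 85.8% on multi-exon models only.

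No paired analysis was possible because there is 1 group. With 2 libraries and 1 to 682 reads per proteasome gene, depth limits what can be seen: genes with under 20 reads (Psmg1, Psmg3, Psme4 and Psmb9 among the 45) were not tested, and an isoform of a gene with under 20 reads in a library has a wide interval (35.4% to 84.8% for Psmd10-202 in replicate 1).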
